A study of Mus musculus with 13 samples.

Results

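The cyclin E and E2F family was followed in C2C12 myotubes, muscle fibres formed in culture from a mouse myoblast line, after exposure to palmitoylethanolamide (PEA), a fatty acid amide. The family comprised 10 genes of the 16382 in the count tables: the cyclins Ccne1 and Ccne2, the transcription factors E2f1, E2f2, E2f3, E2f4, E2f5, E2f7 and E2f8, and the pocket protein gene Rbl1. They were found by gene symbol, and all 10 passed the filter on low counts that left 13142 genes for testing. The family was chosen by its Ccne1 counts, which were clearly higher with PEA, so the difference in Ccne1 is described without a test, and the differences of the other members, which come from the same contrast, are descriptions too.

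RNA-seq was performed on wild-type (WT) C2C12 cells that had been in low-serum medium until day 8 of differentiation. The control myotubes (CON, 6 libraries) then received the vehicle DMSO, and the treated myotubes (PEA, 6 libraries) received 10 µM PEA, in each case for 24 h. Wells were in duplicate and the experiment was done 3 times, but the labels do not pair wells with repeats. The spread between libraries, and every p-value whether adjusted or not, may therefore be partly technical. All cultures are of a single cell line, which limits both groups as a model of muscle tissue.

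In proliferating cells, cyclin E binds the kinase CDK2, and the complex phosphorylates the pocket proteins RB1, p107 (the product of Rbl1) and p130 (Rbl2). Phosphorylated pocket proteins release E2F factors, which bind DNA with a DP partner and switch on genes for DNA replication, among them cyclin E itself. Myoblasts leave the cell cycle in the course of differentiation, and pocket proteins with the repressive E2F factors hold the replication genes down in the myotube.

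The promoter sequences below are shown because E2F factors are known to regulate their own family. For 9 of the members, the 250 bases before the start of the canonical transcript were read from the mouse genome (GRCm39, with GENCODE starts) and searched on both strands for the E2F sites TTTGGCGC, TTTCCCGC, TTTGCCGC and TTTCGCGC, and for their short cores, the same letters without the first T. Each longer site therefore contains a core. A core was found for 4 of these 9 members and for 8.93% of the promoters of all 21770 protein-coding genes. A longer site was found for 2 of them (E2f3 and E2f7) and for 2.28% of all promoters. The windows around the matches read 5′ to 3′ on the strand of the gene, and the capitals mark the matched letters.
Ccne1 (chr7:37807229-37807275, minus strand): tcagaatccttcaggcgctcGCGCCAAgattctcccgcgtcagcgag
Ccne2 (chr4:11190542-11190560, plus strand): gccgctgtccTTGGCGCcc
E2f3 (chr13:30170047-30170067, minus strand): tgaaaagccgGCGGGAAAtct
E2f7 (chr10:110581057-110581234, plus strand): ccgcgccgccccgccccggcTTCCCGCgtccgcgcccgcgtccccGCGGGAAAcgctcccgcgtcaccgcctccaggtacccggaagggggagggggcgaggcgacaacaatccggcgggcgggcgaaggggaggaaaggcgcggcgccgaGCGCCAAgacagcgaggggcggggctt

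The match in Ccne1 began 218 bases before the start, and that in Ccne2 began 9 bases before it. Of the 9, only E2f7 had 3 separate matches, which began 229, 204 and 98 bases before its start. The 9 promoters held between 52.0% and 77.2% G and C (all promoters: median 53.2%). The cell cycle homology element, written here as TTTGAA or TTTAAA, was found for 1 of them (E2f3) and for 24.9% of all promoters, and it does not overlap the E2F match there. Parts of these stretches are annotated as exon of some transcript, including all 250 bases for E2f3 and 215 bases for Ccne2, so that all 21 bases printed for E2f3 and 13 of the 19 for Ccne2 are exonic. A match of letters describes the sequence only, and these letters were not found in the windows of E2f1, E2f2, E2f4, E2f5 and Rbl1.

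Depth ran from 12354845 to 50397444 estimated counts (median 18420606 over the 12 libraries), and the deepest library, CON replicate 1, exceeded the next 2.25-fold. Values below are normalized counts, the authors' estimated counts divided by 1 factor per library. Each member was well covered, with at least 93 estimated counts in every library. The myotube markers Myog (9097 to 14130), Acta1 and Myh3 were high in all 12 libraries. Genes used as markers of unfused myoblasts were detected as well, with Pax7 between 83.4 and 147 and Myod1 between 1512 and 2193. Bulk counts do not show which cells held these transcripts. The paper states that unfused myoblasts remain in this model. In these bulk libraries, a change in the number of cells of a type and a change in RNA per cell cannot be told apart.

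In CON, E2f4 had the highest level per length of exon, at 239.9 ± 18.5 normalized counts per kb (SD, n = 6). E2f1 (185.1 ± 21.9) and E2f2 (185.1 ± 10.2) followed at a similar level, and E2f2 divided by E2f1 was 1.01 ± 0.118 within CON libraries. E2f8 (108 ± 14.0), E2f3 (85.9 ± 3.36) and Ccne1 (77.4 ± 15.3) formed the middle of the order. E2f5 (49.4 ± 9.78), Ccne2 (44.0 ± 5.08) and Rbl1 (41.5 ± 2.16) were lower, and E2f7 had the lowest level at 16.7 ± 5.06. The highest and lowest members thus differed 14.4-fold per kb, and factors of both the activating and the repressive kind stood among the highest 4. The order rests on exon length from the annotation. In normalized counts not divided by length, E2f4 (1385) and E2f7 (150.1) remained the highest and lowest in CON. Other places changed, with E2f2 (925.8) above E2f1 (640.8) and Rbl1 (304.8) above Ccne1 (280.5).

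The order in CON uses no PEA library and was tested between neighbours with a two-sided exact permutation test over the 6 libraries (sign flips of the log2 ratio). The same libraries set the order, and the test takes them as independent although wells were in duplicate. Its p-values are therefore descriptions. The CON counts of Ccne1 were 1 side of the difference that chose the family, so no test is read for its 2 pairs: Ccne1 was below E2f3 in 5 of 6 libraries and above E2f5 in 6 of 6. In 3 of the other 7 pairs the first gene was higher in 6 of 6 libraries: E2f4 over E2f1, E2f2 over E2f8, and Rbl1 over E2f7. For each of these p was 0.03125, the smallest that 6 independent libraries allow. The value adjusted over all 9 pairs of the order was 0.0703, and it depends in part on the 2 pairs of Ccne1. None therefore passed the threshold after adjustment, which this design could not reach with so few pairs at the smallest p. E2f8 was higher than E2f3 in 5 of 6 libraries, by a mean log2 ratio of 0.32 ± 0.24 (SD; p = 0.0625, exact permutation test). In the remaining 3 pairs, E2f1 and E2f2 (-0.01 ± 0.18), E2f5 and Ccne2 (0.15 ± 0.27) and Ccne2 and Rbl1 (0.08 ± 0.22), the mean log2 ratio was smaller than its SD over the libraries. With PEA, Ccne1 stood 4th instead of 6th in the same order, at 137 ± 14.4 per kb, and E2f4 remained 1st at 228 ± 18.1 per kb.

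**Figure D1:**
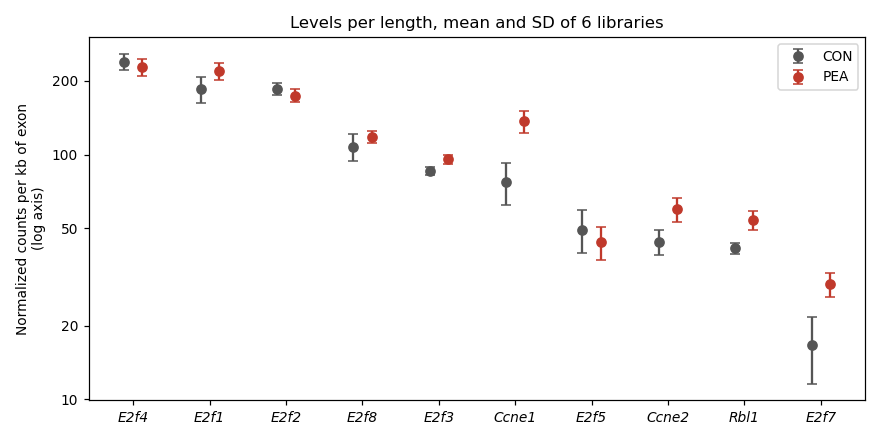
Normalized counts per kb of exon (log axis) of the 10 members in CON (grey) and PEA (red), ordered by the CON level. Points are means and bars are SD over 6 libraries, and E2f4 is the highest member and E2f7 the lowest in both groups.

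Ccne1 (ENSMUSG00000002068) encodes cyclin E1, the activating subunit of CDK2 at entry into S phase, and lies on chromosome 7 from 37797404 to 37808264 on the minus strand (GRCm39). In CON the 6 libraries had between 225 and 385 normalized counts with a median of 271.5. In PEA they had between 431 and 545 with a median of 503. No PEA library was as low as the highest CON library, which was CON replicate 2 at 385, and the next CON library was at 283. The CON mean was 280.5 ± 55.6 and the PEA mean 497 ± 52.0 (SD, n = 6 each), 1.77 times as high, with a log2 fold change of 0.83 (SE 0.11). This is the value on which the family was chosen.

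Ccne2 encodes cyclin E2, a close relative with the same partner kinase, and lies on chromosome 4 from 11190303 to 11204947 on the plus strand. It ranged from 202.5 to 285 normalized counts in CON (median 254) and from 281 to 379.6 in PEA (median 334). The groups overlapped only between CON replicate 3 (285) and PEA replicate 4 (281). The log2 fold change of Ccne2 was 0.44 (SE 0.09, edgeR adjusted p = 0.00837). Per kb, Ccne1 was 1.78 ± 0.391 times Ccne2 in CON and 2.31 ± 0.324 times in PEA (SD, n = 6 each), and the ranges of this ratio overlapped, at 1.34 to 2.29 and 1.79 to 2.65. Of the exon bases of Ccne2, 15.2% also belong to Ints8 on the opposite strand, and the sources used here do not state whether counting used the strand. Ints8 itself had a log2 fold change of -0.16 (SE 0.07, edgeR adjusted p = 0.143).

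The activators E2f1, E2f2 and E2f3 are the factors that RB1 restrains, and they drive transcription of replication genes once released. E2f1 (chromosome 2, 154401326 to 154411812, minus strand) ranged from 561 to 786 normalized counts in CON (median 622) and from 675 to 844.5 in PEA (median 775). The groups overlapped through CON replicate 3, which at 786 was well above the other CON libraries, the next of which was at 639.9. Its log2 fold change was 0.25 (SE 0.08, edgeR adjusted p = 0.0425). When libraries were left out in turn, this call was lost in 10 of 12 fits, with adjusted p up to 0.0894 without PEA replicate 6. It held without CON replicate 3 (0.00591) and without PEA replicate 5 (0.0413).

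E2f2 (chromosome 4, 135899585 to 135923368, plus strand) had 926 ± 50.8 normalized counts in CON, between 871.5 and 992, and 872 ± 51.2 in PEA, between 825 and 952. The ranges shared most of their width, and the log2 fold change of -0.09 (SE 0.05) did not pass the threshold (edgeR adjusted p = 0.315). E2f3 (chromosome 13, 30090558 to 30170046, minus strand) had between 443 and 483 normalized counts in CON and between 488 and 557 in PEA. Its libraries did not overlap between the groups, yet the gap was narrow and the log2 fold change of 0.16 (SE 0.06) did not pass the threshold (edgeR adjusted p = 0.0789). Of the 3 activators, then, 1 passed the threshold, where 11.0% of all genes tested were called, and E2f2 differed in sign from E2f1 and E2f3. E2f2 divided by E2f1, per kb, was 1.01 ± 0.118 in CON and 0.797 ± 0.0767 in PEA (SD, n = 6 each), with overlapping ranges.

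E2f4 and E2f5 are the repressive factors that carry p107 and p130 to promoters in resting cells. E2f4 (chromosome 8, 106024243 to 106032003, plus strand) ranged from 1238 to 1520 normalized counts in CON (median 1405) and from 1204 to 1490 in PEA (median 1301). The ranges nearly coincided, and the log2 fold change was -0.07 (SE 0.06, edgeR adjusted p = 0.51). E2f5 (chromosome 3, 14643676 to 14672404, plus strand) ranged from 150.3 to 241 in CON (median 196) and from 152 to 225 in PEA (median 168). The PEA range lay within the CON range, and the log2 fold change was -0.17 (SE 0.14, edgeR adjusted p = 0.444). E2f5 shares 43.4% of its exon bases with Rbis on the opposite strand, so its counts are uncertain, and Rbis had a log2 fold change of -0.19 (SE 0.10, edgeR adjusted p = 0.217).

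E2f7 and E2f8 are the atypical factors, which bind DNA without a DP partner and repress E2F targets, E2f1 among them, late in S phase. E2f7 (chromosome 10, 110581300 to 110623245, plus strand) ranged from 95.6 to 231 normalized counts in CON (median 148) and from 221 to 307.5 in PEA (median 273). A single CON library, replicate 2 at 231, reached the PEA range, and CON replicate 3 was the lowest at 95.6. The mean rose from 150.1 ± 45.6 to 267 ± 30.0 (SD, n = 6 each), 1.78 times as high, with a log2 fold change of 0.84 (SE 0.16, edgeR adjusted p = 0.00422). Without CON replicates 2 and 3, a setting chosen after the values had been seen, E2f7 was still called.

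E2f8 (chromosome 7, 48516176 to 48531452, minus strand) ranged from 450.0 to 656 normalized counts in CON (median 637) and from 604.6 to 712 in PEA (median 655). The lowest value was that of CON replicate 4, and the other CON libraries lay between 583 and 656. The log2 fold change was 0.13 (SE 0.08, edgeR adjusted p = 0.306), and it was 0.06 without CON replicate 4. Per kb, E2f8 was 6.85 ± 1.79 times E2f7 in CON and 4.03 ± 0.449 times in PEA (SD, n = 6 each), with ranges of 4.44 to 9.86 and 3.55 to 4.79. E2f8 shares 20.2% of its exon bases with an opposite-strand lncRNA, Gm2788.

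Rbl1 encodes p107, the pocket protein that binds E2F4 and E2F5 and whose gene is itself known as an E2F target. It lies on chromosome 2 from 156987813 to 157046475 on the minus strand. In CON its libraries were close together, from 281 to 322 normalized counts (median 306.5), and in PEA they ranged from 338 to 438 (median 398). The groups did not overlap. The mean rose from 305 ± 15.9 to 395 ± 35.6 (SD, n = 6 each), with a log2 fold change of 0.38 (SE 0.07, edgeR adjusted p = 0.00492).

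**Figure D2:**
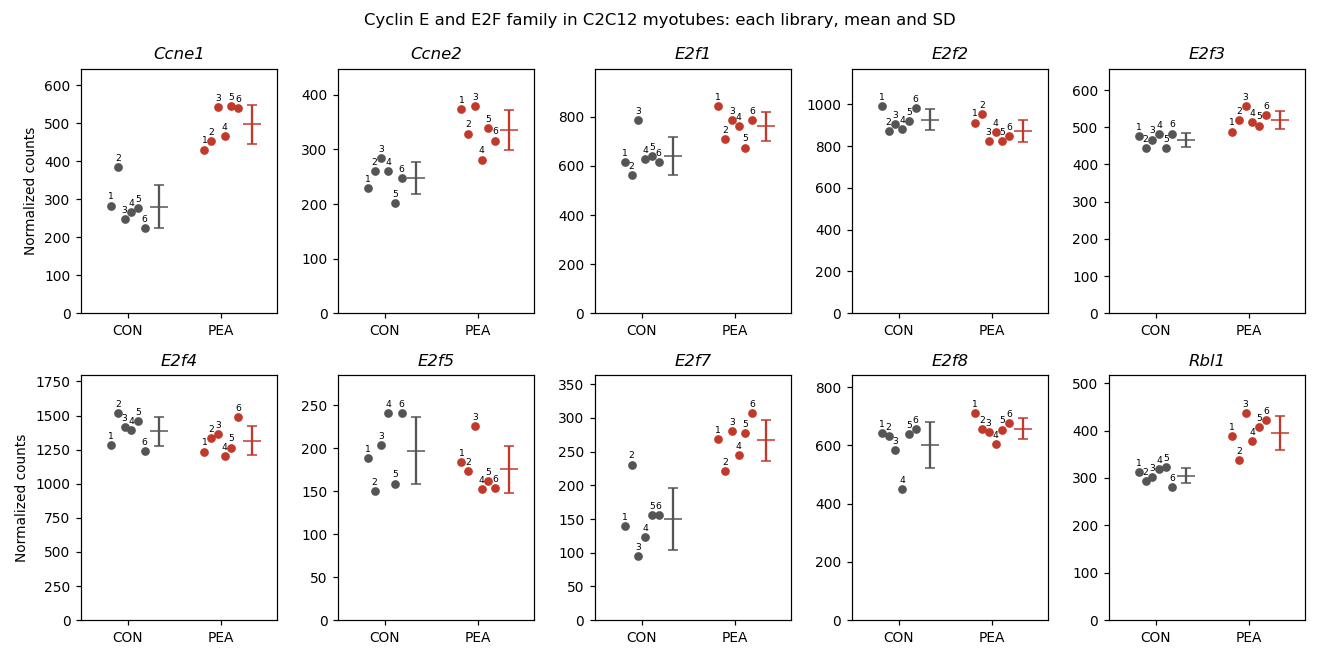
Normalized counts of each member in the 6 CON (grey) and 6 PEA (red) libraries, each axis from 0, with replicate numbers over the points and mean and SD beside them. Ccne1, E2f3 and Rbl1 show no overlap between the groups, and CON replicate 2 is the highest CON library for Ccne1 and E2f7.

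Leaving aside Ccne1, on which the family was chosen, 4 of the other 9 members were called in edgeR, all of them higher in PEA: Ccne2, E2f1, E2f7 and Rbl1. Of all genes tested, 11.0% were called, 6.31% as higher and 4.74% as lower. The median log2 fold change of these 9 members was 0.16, against 0.01 over all genes tested, with 6 members above 0 and 3 below. Besides Ccne1, normalized counts of the groups did not overlap for 2 members (E2f3 and Rbl1), both higher in PEA. Among all genes 2.53% had no overlap and were higher, and 4.34% had no overlap in either direction. These shares stand beside counts from the contrast that led to the family, and nothing is read from them.

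**Figure D3:**
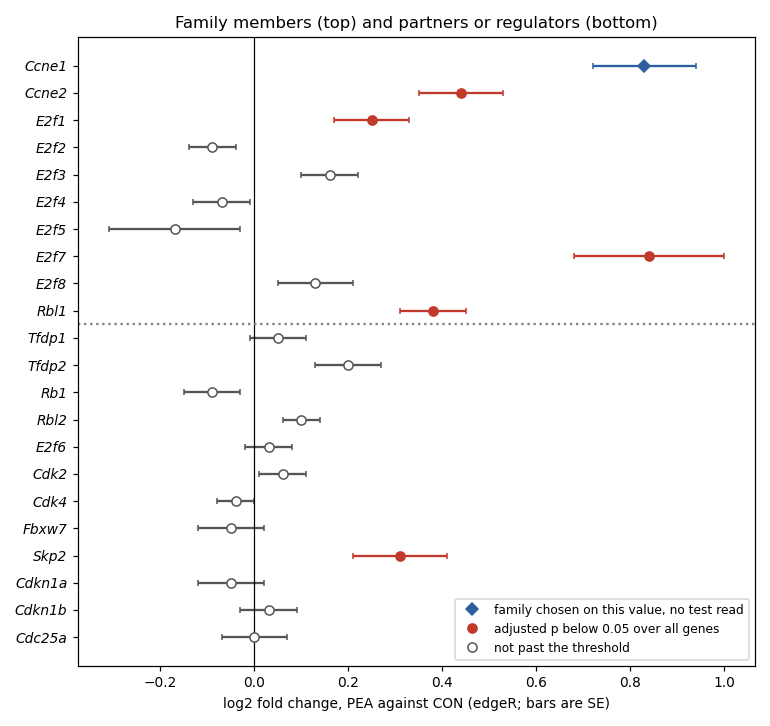
Log2 fold change of PEA against CON (edgeR, bars are SE) of the 10 members above the dotted line and of 12 partners and regulators below it. Filled red points passed an adjusted p of 0.05 over all genes, open points did not, and the blue diamond marks Ccne1, on which the family was chosen.

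Activator and repressor E2F levels were set against each other within each library, as the mean log2 CPM (counts scaled to a common library size) of the activators minus that of the repressors E2f4, E2f5, E2f7 and E2f8. This difference was 0.73 ± 0.16 in CON and 0.65 ± 0.09 in PEA (SD, n = 6 each), a shift of -0.09 on the log2 scale that is smaller than the spread between CON libraries. The shift was -0.14 without CON replicate 2 and -0.04 without CON replicate 3. This value joined both repressor classes, whose differences had opposite signs. The mean level of E2f4 and E2f5 was 4.76 ± 0.11 in CON and 4.65 ± 0.12 in PEA, while that of E2f7 and E2f8 was 3.95 ± 0.27 in CON and 4.46 ± 0.10 in PEA, a difference of 0.51. The activators had a mean level of 5.09 ± 0.07 in CON and 5.20 ± 0.05 in PEA, a difference of 0.11.

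Against E2f4 and E2f5 alone, the activators stood 0.33 ± 0.10 higher in CON and 0.55 ± 0.11 higher in PEA, a shift of 0.22. Against E2f7 and E2f8 alone, they stood 1.14 ± 0.32 higher in CON and 0.74 ± 0.11 higher in PEA, a shift of -0.40. The sign of the shift thus depended on which repressors were counted. CON libraries spread widely in the latter measure, from 0.65 in replicate 2 to 1.54 in replicate 3, and PEA libraries lay between 0.62 and 0.89.

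**Figure D4:**
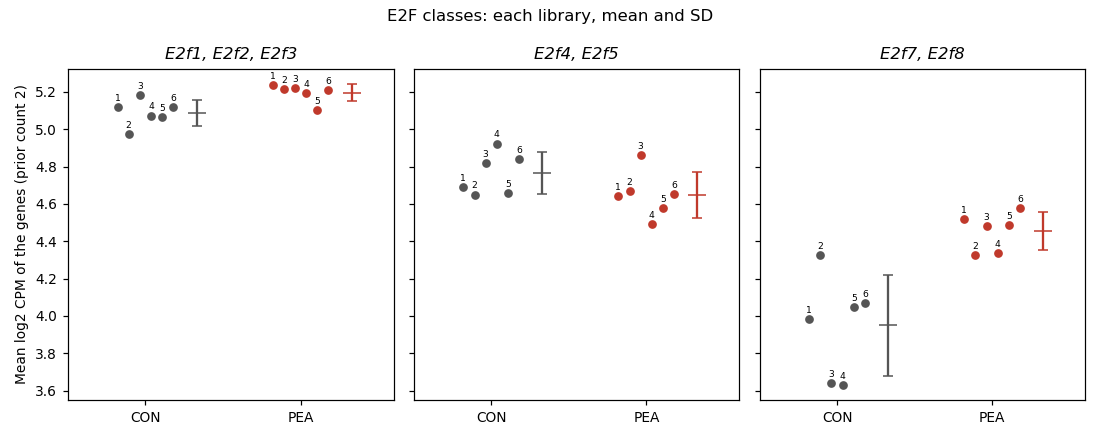
Mean log2 CPM of the activators (E2f1, E2f2, E2f3), of E2f4 and E2f5, and of E2f7 and E2f8 in each CON (grey) and PEA (red) library, with mean and SD. E2f7 and E2f8 show the widest spread in CON, from 3.63 to 4.33, and lie between 4.33 and 4.58 in PEA.

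Of 22 partners of E2F factors and regulators of cyclin E, 3 rose and none fell in edgeR (median log2 fold change 0.05), a share of 13.6% against 6.31% of all genes called as higher and 11.0% called in either direction. They were Cdkn2c, an inhibitor of CDK4 and CDK6 (0.35, SE 0.06, adjusted p = 0.00327), Cks1b, a cofactor of CDK and of SKP2 (0.29, SE 0.08, adjusted p = 0.0245), and Skp2. Skp2 is the substrate receptor of a ubiquitin ligase that degrades p27 and free cyclin E, and its mean was 209 ± 26.0 in CON and 260.3 ± 23.8 in PEA, a log2 fold change of 0.31 (SE 0.10, edgeR adjusted p = 0.0473). The Skp2 call was not kept by limma-voom (0.0542), with median-of-ratios size factors or without a filter on low counts (0.0539), and it was lost in 9 of 12 fits with a library left out.

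The direct partners of the family did not pass the threshold. The DP genes Tfdp1 and Tfdp2 had log2 fold changes of 0.05 (SE 0.06) and 0.20 (SE 0.07, edgeR adjusted p = 0.0669), and the latter passed without CON replicate 5 (0.0324). The other pocket protein genes Rb1 and Rbl2 were at -0.09 (SE 0.06) and 0.10 (SE 0.04). Of the 3 pocket protein genes Rbl1 was thus the one called, where 11.0% of all genes tested were called. E2f6, a repressor that acts without pocket proteins, was at 0.03 (SE 0.05). Cdk2, the kinase of cyclin E, was at 837 ± 50.2 normalized counts without PEA and 871 ± 50.1 with it, a log2 fold change of 0.06 (SE 0.05, edgeR adjusted p = 0.517).

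The CDK2 inhibitor genes Cdkn1a, Cdkn1b and Cdkn1c, and the ligase genes Fbxw7 and Cul3, did not pass the threshold. Cdkn1a, which encodes the inhibitor p21 and is abundant in myotubes, averaged 36140 ± 4692 in CON and 34840 ± 1591 in PEA, a log2 fold change of -0.05 (SE 0.07). Cdkn1b, which encodes p27, was at 0.03 (SE 0.06), and Fbxw7, the receptor that marks phosphorylated cyclin E for degradation, was at -0.05 (SE 0.07). Cdkn1c, which encodes p57, was at -0.19 (SE 0.21), and Cul3, a scaffold of a ligase for free cyclin E, at -0.16 (SE 0.06, edgeR adjusted p = 0.088). Cul3 passed the threshold as lower without CON replicate 2 (0.0185). Cdk4 was at -0.04 (SE 0.04). Cdc25a, the phosphatase that activates CDK2, averaged 401 ± 25.8 in CON and 401 ± 23.1 in PEA.

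MuvB is the core complex that joins p107 or p130 and E2F4 in DREAM, which silences cell cycle genes in resting cells, and that binds MYBL2 and FOXM1 instead in dividing cells. Of 7 such genes tested, 2 (28.6%) rose and none fell (median log2 fold change 0.17), against 6.31% of all genes called as higher. Foxm1 ranged from 271.5 to 699.8 normalized counts in CON and averaged 437 ± 151 there against 759 ± 59.3 in PEA (log2 fold change 0.81, SE 0.16, edgeR adjusted p = 0.00561). Mybl2 went from 135 ± 43.8 to 231 ± 27.9 (log2 fold change 0.79, SE 0.17, edgeR adjusted p = 0.00817). Among the core genes, the histone-binding Rbbp4 had the smallest p at a log2 fold change of -0.12 (SE 0.05) and did not pass (edgeR adjusted p = 0.101), although it did without PEA replicate 3 (0.0338).

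Of 40 textbook E2F targets, most of which act in DNA replication, nucleotide supply and repair, 27 (67.5%) rose, none fell, and 13 did not pass the threshold, where 6.31% of all genes were called as higher. All 40 had a log2 fold change above 0, from 0.08 to 0.94, with a median of 0.35, and the groups did not overlap for 14 of them (2.53% of all genes had no overlap and were higher). Atad2, a chromatin ATPase, had the smallest p, at 603 ± 32.6 in CON against 935.5 ± 79.8 in PEA (log2 fold change 0.64, SE 0.06, edgeR adjusted p = 0.000155). Rrm2, a subunit of ribonucleotide reductase, went from 3416 ± 378 to 4848 ± 111 (0.51, SE 0.06, edgeR adjusted p = 0.000327). Msh6, a mismatch repair gene, went from 776 ± 46.6 to 1010 ± 35.6 (0.38, SE 0.05, edgeR adjusted p = 0.000467). A short E2F core was found in the promoters of 11 of these 40 genes (8.93% of all promoters), a longer site in 6 (2.28% of all) and the cell cycle homology element in 11 (24.9% of all).

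Of 10 markers of dividing cells, 9 rose and none fell (median log2 fold change 0.80), against 6.31% of all genes called as higher, and Ube2c, at 0.02 (SE 0.12), did not pass. Top2a, the topoisomerase of dividing cells, went from 1145 ± 349 to 2203 ± 151 normalized counts (0.95, SE 0.14, edgeR adjusted p = 0.000937). The mitotic kinase genes Aurkb (0.87, SE 0.15, edgeR adjusted p = 0.00185) and Bub1 (0.96, SE 0.19, edgeR adjusted p = 0.00516) rose as well. The summed level of the 10 markers was between 2944 and 7802 in CON and between 7333 and 8932 in PEA. Their part in the differences of the family was not tested.

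Of 17 markers of unfused myoblasts and progenitors tested, 3 fell and none rose in edgeR (median log2 fold change -0.08, 17.6% called against 4.74% of all genes called as lower): Id3 (-0.40, SE 0.10, edgeR adjusted p = 0.0141), Hes1 (-0.38, SE 0.09, edgeR adjusted p = 0.0162) and Cdh15 (-0.25, SE 0.08, edgeR adjusted p = 0.0444). Pax7 (-0.02, SE 0.16), Myf5 (0.09, SE 0.10) and Myod1 (-0.10, SE 0.08) did not pass the threshold. Of the 17, 6 had a log2 fold change above 0 and 11 below. The summed level of this list was 36690 to 44380 in CON and 37610 to 42120 in PEA, and it mostly follows the most abundant genes of the list. The receptor gene Notch3 had a log2 fold change of 0.27 (SE 0.09, edgeR adjusted p = 0.0519), its libraries did not overlap between the groups, and it was called as higher in 5 alternatives that kept all libraries, with adjusted p between 0.028 (DESeq2) and 0.05 (at least 10 counts in every library). Cdh15 was called in only 3 of 12 fits with a library left out, and Pax3 was below the filter on low counts. Of 27 muscle differentiation genes, 7 (25.9%) fell and none rose (median -0.19), against 4.74% of all genes called as lower, among them Tnni2 (-0.47, SE 0.07), Myl1 (-0.40, SE 0.07) and Actc1 (-0.49, SE 0.11). Dmd, at a log2 fold change of 0.85 (SE 0.40, edgeR adjusted p = 0.18) from at most 29 estimated counts in a library, was called as higher without CON replicate 2 (0.0412). Their summed level was 181600 to 276700 in CON and 189700 to 214700 in PEA, and their part in the differences of the family was not tested. Of markers of adipocytes, endothelium and immune cells, 4 could be tested, and 0 were called by edgeR or DESeq2 and 0 had an unadjusted p below 0.05. Fabp4 (-0.33, SE 0.32), Pparg (0.15, SE 0.17) and Lyz2 (0.19, SE 0.38) had the smallest p-values. Their summed level with the rest of the list was 239 to 302 in CON and 247 to 323 in PEA. The immune marker Ptprc was at 0 in 10 libraries and the endothelial marker Cdh5 at 0 in 5.

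Libraries of the same treatment also differed from each other. With each group centred on its mean in log2 CPM, E2f7 followed the mean of the markers of dividing cells over the 12 libraries (r = 0.91, rho = 0.66), and Ccne1 did so less closely (r = 0.68, rho = 0.62). E2f1 ran the other way (r = -0.74, rho = -0.36). These values rest largely on CON replicate 2, the CON library with the highest marker level, and CON replicate 3, the one with the lowest. Without those 2 libraries r was 0.58 for E2f7, 0.49 for Ccne1 and 0.17 for E2f1 (n = 10), and Rbl1, at 0.15 over all 12 libraries, was at 0.73. Over all 12 libraries, r with the mean of the muscle differentiation markers was 0.68 for E2f7, 0.59 for Ccne1 and -0.58 for E2f1. With the mean of the E2F targets it was 0.59, 0.23 and 0.16 in the same order. In the muscle marker mean, centred over all libraries, CON replicate 3 was lowest (-0.52) and CON replicates 2 and 5 were highest (both 0.42). The points share library depth and preparation, so the coefficients are descriptions and carry no test.

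**Figure D5:**
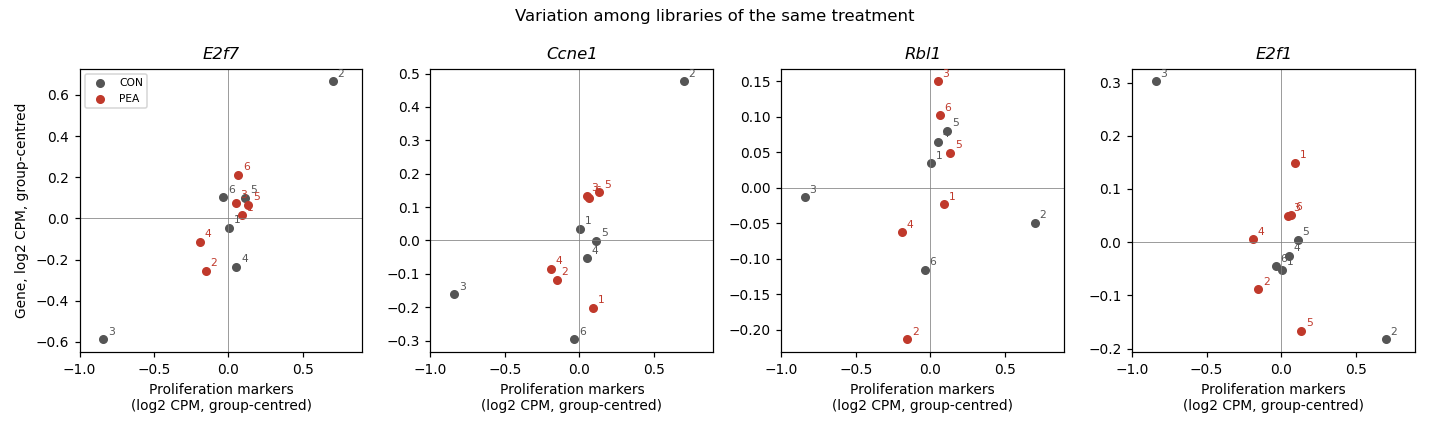
Log2 CPM of E2f7, Ccne1, Rbl1 and E2f1 against the mean log2 CPM of 10 markers of dividing cells, each centred on its group mean, with replicate numbers at the points (CON grey, PEA red). CON replicates 2 and 3 stand far out on the marker axis, at the high and the low end of E2f7 and at opposite ends of E2f1.

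In the same centred values, the genes most like Ccne1 among 10153 genes with a mean log2 CPM of at least 3 were Ppm1d (r = 0.90), Cenpa (r = 0.90), Ppic (r = 0.87), Vwa8 (r = 0.87) and Psat1 (r = 0.87) over 12 libraries. Of these, Cenpa, which encodes the centromeric histone, had a log2 fold change of 0.67 (SE 0.17, edgeR adjusted p = 0.0217), and Psat1, a gene of serine synthesis, one of 0.25 (SE 0.05, edgeR adjusted p = 0.00917). Ppm1d, Ppic and Vwa8 were not called. Ppm1d, Cenpa, Ppic, Vwa8 and Psat1 were picked as the highest of 10153 genes by r over 12 libraries. Some high values can arise from such a search alone. Whether r of these genes exceeds that was not tested, and it is not given here without CON replicates 2 and 3. Among the members, E2f7 stood highest in this order at rank 291 (r = 0.70), followed by E2f4 at rank 586 (r = 0.62) and Rbl1 at rank 1953 (r = 0.38). Ccne2 was at rank 4648 with r = 0.01, so that within a treatment the 2 cyclin E genes did not follow each other. E2f1 (r = -0.52), E2f5 (r = -0.52) and E2f2 (r = -0.63) stood near the end. Without CON replicates 2 and 3, r with Ccne1 was 0.29 for E2f7, 0.57 for E2f4, 0.79 for Rbl1, -0.13 for Ccne2, -0.25 for E2f1, -0.25 for E2f5 and -0.64 for E2f2 (n = 10).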

How the data were processed

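Poly-A RNA of C2C12 myotubes was sequenced as 50-base read pairs. According to the study's methods and the labels, the authors removed reads with a Phred score below 20, aligned the rest with STAR 4.4.1d to mm39 (GRCm39) and quantified them to Ensembl genes in Partek. One table deposited by the authors holds the estimated count of each gene. The other deposited table holds a linear signal, in which each library's estimated counts are divided by its own factor, and this is called normalized counts here. PEA replicate 2 has 2 label entries (a run and a top-up run) that share 1 set of counts, and was used as 1 library. Symbols and exon lengths came from GENCODE for GRCm39 and matched 16343 of 16382 identifiers. The tables end at an identifier beyond which the annotation has 2240 more protein-coding genes, and no gene outside the tables was analysed here for expression. The promoter of 1 member is not reported here.

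Estimated counts (30.8% of those above 0 lay more than 0.01 from a whole number) were rounded and tested with edgeR 4.0.16 in R 4.3.3 (TMM, quasi-likelihood test, default filter on low counts, Benjamini-Hochberg over 13142 genes, threshold 0.05). Standard errors reflect counting and the variation among libraries. Log2 CPM used a prior count of 2. Single measures were compared by exact permutation. The members and the gene lists were chosen with earlier results of these data known. The genes named are all members, 12 fixed partners, the 3 genes of smallest p in each list and the 5 genes most like Ccne1. Cdkn2c, Cks1b, Cdkn1c, Cul3, Notch3, Dmd, Ube2c and the genes on the opposite strand were named after their values were seen. The fold changes of Pax7, Myf5 and Myod1 were also added after their values were seen. Alternatives were DESeq2 1.42.0, limma-voom and limma 3.58.1 on log2 of the deposited normalized counts plus 1, median-of-ratios size factors, other filters (none, or at least 10 counts in every library), a replicate block, an adjusted p below 0.01, leaving out each library, and leaving out CON replicates 2 and 3, which was added after seeing the data.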

Additional observations from a re-analysis of the deposited data

Results flagged for a closer look

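In 20 groups of 6 libraries (10 members, 2 treatments), 3 had a library whose gap to its nearest neighbour exceeded Dixon's 95% critical share of the group's range, and chance flags about 1 in 20 such groups. For Ccne1, CON replicate 2 was far above the other CON libraries at 385.3 normalized counts, with the next at 283. These counts were part of the difference that chose the family, so this flag is a description and is not read against that rate. For E2f1, CON replicate 3 was far above the other CON libraries at 785.7, with the next at 639.9. For E2f8, CON replicate 4 was far below the other CON libraries at 450.0, with the next at 583. CON replicates 2 and 3 were also the CON libraries with the highest and the lowest level of markers of dividing cells. Without CON replicate 2 the log2 fold change of Ccne1 was 0.94, without CON replicate 3 that of E2f1 was 0.32, and without CON replicate 4 that of E2f8 was 0.06. No flag fell on a PEA library.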

How the results depend on the processing

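The 10 members kept their direction in all 200 alternative fits, and 10 of these changed a call, each of them the call of E2f1 with 1 library left out. No call of a member changed in the 70 fits that kept all libraries at the 0.05 threshold. Both numbers of fits include those of Ccne1, whose difference chose the family, so its part in them is not read as a result. The number of genes called was 405 at an adjusted p below 0.01 and lay between 778 (PEA replicate 6 left out) and 2203 (CON replicate 2 left out). The share of calls that were higher was 57.1%, 51.5% with DESeq2 and 69.6% at an adjusted p below 0.01. At that threshold 1 partner or regulator, 5 markers of dividing cells, 2 muscle differentiation genes and 0 myoblast markers were called. Myoblast markers called were 6 by DESeq2, 5 by limma-voom and 5 without CON replicates 2 and 3, in each case with 1 of them higher (Notch3), and muscle differentiation genes called were 13 without these libraries. With 1 library left out, partners called ranged from 1 to 4, myoblast markers from 2 to 4 and muscle differentiation genes from 3 to 13. The shift of activators against repressors was 0.223 with E2f4 and E2f5 only and -0.397 with E2f7 and E2f8 only. Cdkn1b (0.03) ranged from -0.00072 without CON replicate 2 to 0.06 without CON replicate 3. Cdc25a (0.0018) was at -0.0026 with DESeq2, -0.0033 with median-of-ratios size factors and -0.0013 with limma on the deposited normalized counts, and between -0.02 and 0.03 with 1 library left out. The cause of these changes was not tested. With the replicate number as a block, 1570 genes were called, none of the 9 members besides Ccne1 changed in call, Cul3 was called as lower (adjusted p = 0.0434) and Notch3 as higher (0.0332), and Skp2 (adjusted p = 0.0749) and Cdh15 (0.0536) were not. No pairing by number was seen. The correlation of deviations between CON and PEA libraries of the same number lay between -0.0829 and 0.0649, and 0 of 6 CON libraries correlated best with its own number. Pairing in other combinations was not checked. Depth limits E2f7 most among the members, with 93 estimated counts in its lowest library.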
